A study of Rattus norvegicus with 7 samples.

Results

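The immediate early transcription factors described here are 10 rat genes, Egr1, Fos, Fosb, Jun, Junb, Atf3, Nr4a1, Ier2, Ier3 and Myc, taken by gene symbol. The list was chosen with earlier results of these data known. These genes are 10 of 14217 that had a probe set carrying a single gene symbol, and they were read by 13 of the 31042 non-control probe sets of the array. The samples were lungs of inbred Dahl Salt Sensitive rats, all kept in hypoxia at an inspired oxygen fraction of about 9.5% and all given SU-5416, an inhibitor of the VEGF receptors that is used with hypoxia to produce pulmonary hypertension. The 3 HSU arrays (replicates 1b, 2b and 3b) had no further treatment, and the 4 HSU_Sor arrays (replicates 1 to 4) came from rats that were also given sorafenib, an inhibitor of RAF kinases and of the VEGF and PDGF receptors. Total RNA came from the right lung, clamped and frozen after the pulmonary vessels had been flushed with saline, and the series design puts the harvest at 3.5 weeks. Each array was taken to be a separate rat, since the design counts rats per group, so the p-values measure the spread between these 7 lungs. The age of the rats, the doses and the time from the last dose to the harvest are not given in the sources used here. Normoxic and hypoxia-only lungs are not analysed here, so each comparison is between lungs that share hypoxia and SU-5416.

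Immediate early genes are transcribed within minutes of a stimulus from factors already present in the cell, with no need for new protein. Growth factor signals reach many of them through the RAF, MEK and ERK kinases, which act on SRF and its ETS-family partners at CArG boxes (serum response elements), while cAMP and calcium signals act through CREB at cAMP response elements (CREs). Their transcripts decay quickly, and in lung they are raised by stretch, growth factors, injury and the handling of the tissue. The right lung was whole tissue, so fewer cells that make a transcript and less of it per cell cannot be told apart.

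The promoters of Junb, Nr4a1 and Ier2 are shown because their letters hold a CRE or its shorter core, and none of them holds a CArG box. RefSeq promoter windows (assembly GRCr8) were at hand for 5 of the 10 members, Egr1, Fosb, Junb, Nr4a1 and Ier2. Those of Junb (chr19:40080966-40081125), Nr4a1 (chr7:134259888-134260137) and Ier2 (chr19:40399213-40399372) follow, all on the plus strand and ending at the base before the annotated start. Capitals mark matches to the CRE, TGACGTCA, to its shorter core, TGACG, which reads CGTCA on the other strand, or to a TATA box, TATAAA.
Junb: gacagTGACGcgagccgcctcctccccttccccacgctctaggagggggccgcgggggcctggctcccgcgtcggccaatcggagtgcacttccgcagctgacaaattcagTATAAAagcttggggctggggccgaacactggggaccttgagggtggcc
Nr4a1: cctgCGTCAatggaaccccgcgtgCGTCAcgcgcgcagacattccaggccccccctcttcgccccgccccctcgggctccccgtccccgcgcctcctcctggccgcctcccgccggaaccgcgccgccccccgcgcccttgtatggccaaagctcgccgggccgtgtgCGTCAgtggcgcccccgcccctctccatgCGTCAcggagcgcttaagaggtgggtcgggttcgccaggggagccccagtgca
Ier2: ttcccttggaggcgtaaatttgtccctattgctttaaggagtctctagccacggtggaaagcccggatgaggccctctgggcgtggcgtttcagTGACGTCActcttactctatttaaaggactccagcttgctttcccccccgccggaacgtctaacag
Both strands were searched over the 250 bases before each start, and the shorter core also counts where it lies inside a full CRE. Ier2 had the only full CRE, at position -66 counted from the start, and a full CRE was found in 1.7% of all 27457 promoters. Nr4a1 had 4 shorter cores, at -246, -226, -82 and -53, and Junb had 1 at -155 with a TATA box at -49. Egr1 had 2 shorter cores, at -135 and -66, and 2 CArG boxes, at -105 and -83. The shorter core was thus found in 4 of the 5 windows, against 19.0% of all promoters, and a CArG box in 1, against 1.5%. Fosb had only a TATA box on the other strand, at -180, and TATA boxes stood in 2 of the 5 windows and in 13.1% of all. An AP-1 site, TGACTCA or TGAGTCA, was in 0 of the 5 windows and in 3.98% of all. Among the other early response genes described further on, the shorter core stood in 11 of 18 promoters of transcription factors and in 18 of 33 promoters of effector genes, and a CArG box in 2 and 2. These are matches of letters, not measured binding.

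The values are deposited log2 signals of Affymetrix probe sets, so a difference of 1 is a factor of 2 and levels of different probe sets are not compared. A probe set was tested where its mean over the 7 arrays exceeded 3.64, the midpoint of these means when control probe sets are set aside, leaving 15521. The array medians lay between 3.59 and 3.68, and the median deviation of all tested probe sets from their own means was between -0.01 and 0.01 on every array. Of the lung marker lists, all 6 alveolar type II genes and 7 of 7 measured endothelial genes were above the filter. Some arrays stood apart from the rest: cardiac muscle genes, counted as a mean deviation over 5 measured genes, stood at 2.16 in HSU 1b and 1.36 in HSU 2b, and red cell genes were low in HSU_Sor 3 and HSU_Sor 4. Values without these arrays stand with the results. The HSU titles carry the letter b and the HSU_Sor titles do not, so any batch that the letter stands for and the sorafenib treatment cannot be told apart.

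No member passed the test between lungs with and without sorafenib, and most intervals were wide. Of the 9 members above the filter, 8 had a higher and 1 a lower mean with sorafenib, with a median difference of 0.07 against -0.01 over all tested probe sets. By limma with Benjamini-Hochberg adjustment, 0 of 9 members passed an adjusted p of 0.05 and 0 of 9 an unadjusted p of 0.05. The same counts over the whole array were 0 of 15521 (0%) and 931 (6.0%). Between single lungs the members lay far apart: their median range over the 7 arrays was 1.89, and that of all tested probe sets 0.44. All adjusted p-values of single genes are limma's over the 15521 probe sets, and the exact two-sided permutation test of 3 against 4 arrays cannot give a p below 0.0571.

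**Figure D1:**
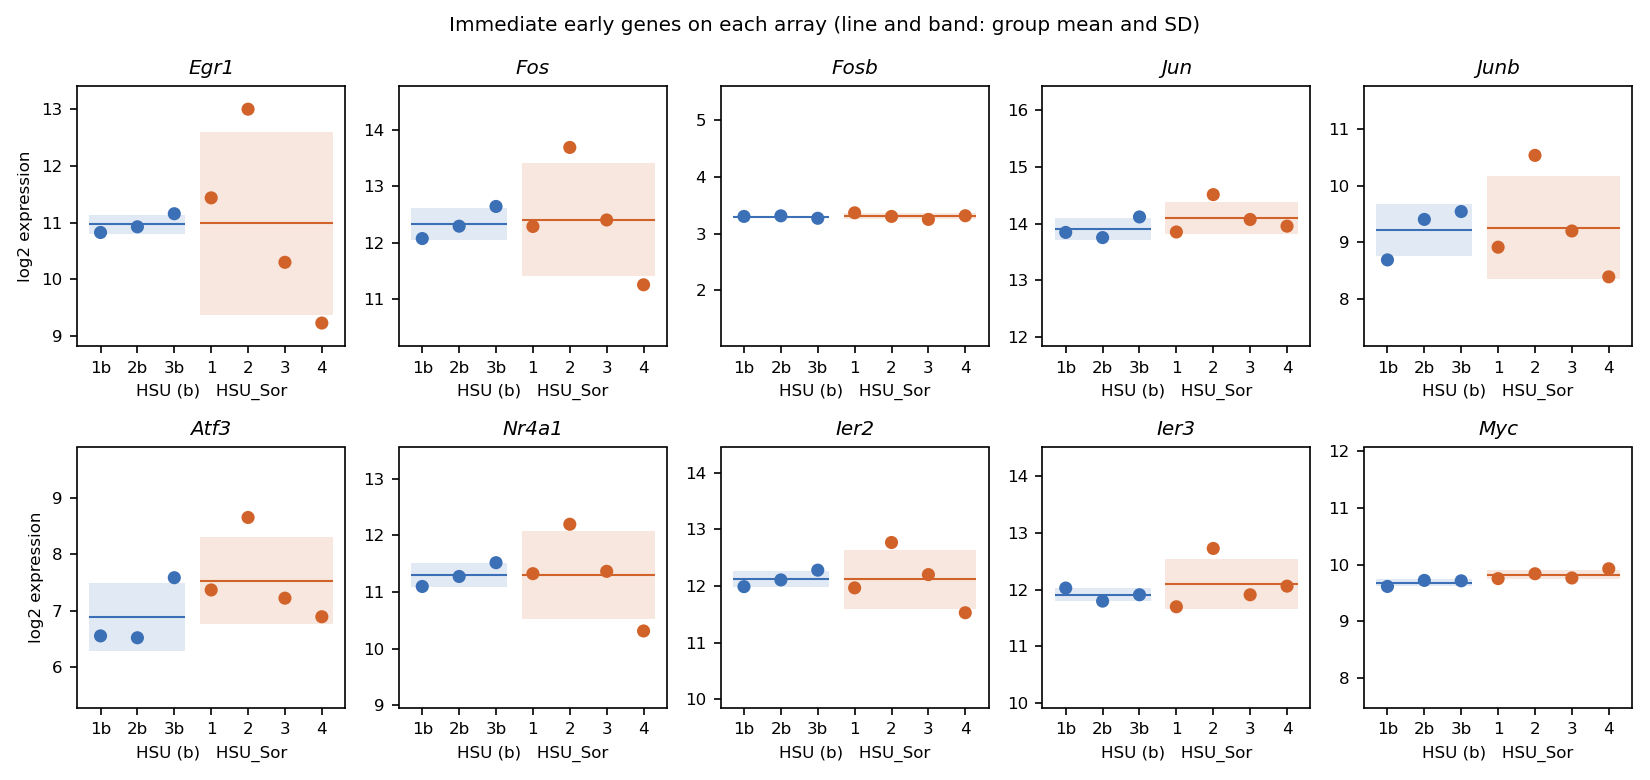
Deposited log2 signal (vertical axis) of each member, represented by its probe set with the highest mean, on the 3 HSU and the 4 HSU_Sor arrays, with a line at each group mean and a band of 1 SD to either side. HSU_Sor 2 is the top point for 8 of the 9 members above the filter, and Egr1 spreads from 9.22 to 13.00 within the sorafenib group.

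Egr1, a zinc finger factor that binds GC-rich promoters, spanned the widest range of the members. Without sorafenib its log2 signal was 10.82 in HSU 1b, 10.92 in HSU 2b and 11.16 in HSU 3b. With sorafenib it was 11.44 in HSU_Sor 1, 13.00 in HSU_Sor 2, 10.30 in HSU_Sor 3 and 9.22 in HSU_Sor 4. The sorafenib arrays thus lay on both sides of a narrow control group, 2 above all controls and 2 below. The group means differed by 0.02 (SE 0.85, 95% interval -2.01 to 2.06, limma adjusted p = 0.998), while HSU_Sor 2 stood 13.7-fold above HSU_Sor 4.

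The AP-1 subunits Fos, Fosb, Jun and Junb form dimers that bind TPA response elements, Fos proteins only as partners of Jun proteins. Fos read 12.07, 12.29 and 12.64 in HSU 1b, 2b and 3b, and 12.29, 13.68, 12.40 and 11.26 in HSU_Sor 1 to 4. The highest and the lowest lung were again HSU_Sor 2 and HSU_Sor 4, 5.38-fold apart, and the difference of means was 0.07 (SE 0.53, interval -1.21 to 1.36, limma adjusted p = 0.989). A second Fos probe set stayed between 2.35 and 2.41 on all 7 arrays, under the filter, and gave no reading of the gene. Fosb was also under the filter, at 3.27 to 3.31 without and 3.25 to 3.37 with sorafenib, with overlapping groups. Its difference in a fit on all non-control probe sets was 0.01 (SE 0.03, exact permutation p = 0.743).

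Junb, which can restrain the growth-promoting activity of Jun, read 8.69, 9.40 and 9.54 in HSU 1b, 2b and 3b, and 8.91, 10.54, 9.20 and 8.39 in HSU_Sor 1 to 4. From high to low the sorafenib lungs ran HSU_Sor 2, 3, 1 and 4, the same order as for Fos, and HSU 1b lay below HSU_Sor 1. The difference of means was 0.05 (SE 0.52, interval -1.19 to 1.29, limma adjusted p = 0.992).

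Jun, the partner that Fos needs to bind DNA, had a narrower range. Its probe set with the highest mean read 13.84, 13.75 and 14.12 in HSU 1b, 2b and 3b, and 13.85, 14.51, 14.07 and 13.96 in HSU_Sor 1 to 4. HSU_Sor 2 was highest, but HSU_Sor 4 was within the control range, and the difference was 0.19 (SE 0.18, interval -0.23 to 0.62, limma adjusted p = 0.887). The other 2 Jun probe sets gave 0.16 and 0.15, also with overlapping groups, and the 3 probe sets correlated over the arrays with Pearson r of 0.81 to 0.93.

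Atf3, a CREB-family factor induced by cell stress that mostly represses, had a difference of means that was the largest of the members over all 7 arrays but not without HSU_Sor 2. It read 6.56, 6.52 and 7.59 in HSU 1b, 2b and 3b, and 7.37, 8.65, 7.22 and 6.90 in HSU_Sor 1 to 4. HSU 3b lay above 3 of the 4 sorafenib lungs, so the groups overlapped. The difference of 0.65 (SE 0.48, interval -0.50 to 1.79, a 1.56-fold higher mean) did not pass (limma adjusted p = 0.874, exact permutation p = 0.286). It was 0.27 without HSU_Sor 2, where those of Egr1, Junb, Fos and Nr4a1 were larger in size, and 0.99 without HSU 3b.

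Nr4a1, an orphan nuclear receptor also known as Nur77, read 11.10, 11.27 and 11.52 in HSU 1b, 2b and 3b, and 11.32, 12.20, 11.37 and 10.31 in HSU_Sor 1 to 4. HSU_Sor 1 and 3 fell inside the control range, HSU_Sor 2 above it and HSU_Sor 4 below it. The group means were 11.30 and 11.30 (interval of the difference -0.99 to 0.998, limma adjusted p = 0.999).

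Ier2 and Ier3 are small early response proteins, Ier2 a nuclear one and Ier3 (IEX-1) a regulator of cell survival. Ier2 read 11.99, 12.11 and 12.28 in HSU 1b, 2b and 3b, and 11.97, 12.77, 12.20 and 11.53 in HSU_Sor 1 to 4, with a difference of -0.01 (SE 0.28, limma adjusted p = 0.998). Ier3 read 12.03, 11.80 and 11.91 without sorafenib and 11.70, 12.73, 11.91 and 12.06 with it, a difference of 0.19 (SE 0.24, limma adjusted p = 0.907). Both were highest in HSU_Sor 2. Only Ier2 was lowest in HSU_Sor 4, where Ier3 lay just above the controls.

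Myc, a bHLH factor that drives growth and ribosome genes, was the 1 member whose groups did not overlap. It read 9.61, 9.72 and 9.71 in HSU 1b, 2b and 3b, and 9.75, 9.84, 9.76 and 9.93 in HSU_Sor 1 to 4. A higher sorafenib group with no overlap was found for 312 of the 15521 tested probe sets (2.01%). The difference was 0.14 (SE 0.06, interval -0.01 to 0.29), a 1.10-fold higher mean that did not pass (limma p = 0.0644, adjusted p = 0.861, exact permutation p = 0.0571, the smallest possible). Myc was the only member highest in HSU_Sor 4.

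**Figure D2:**
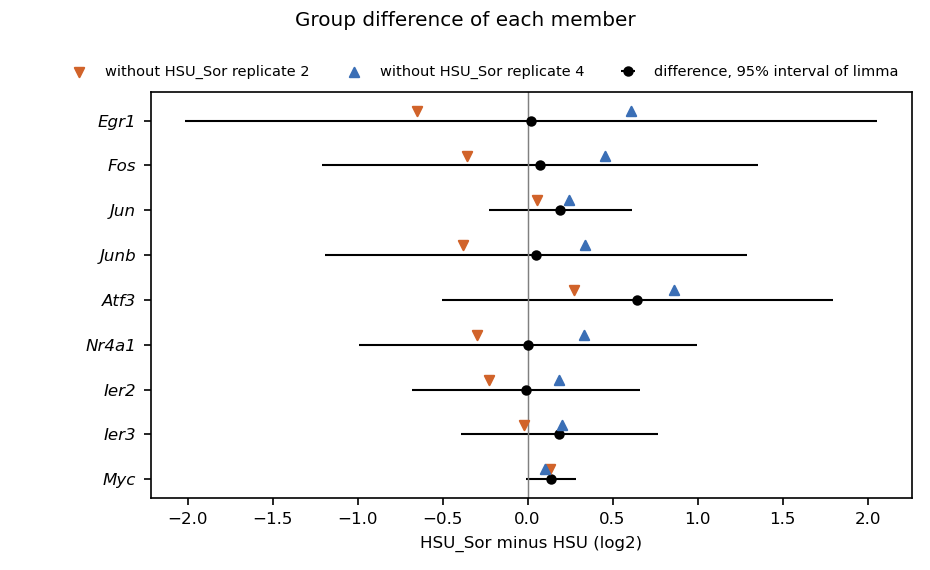
Difference of group means (HSU_Sor minus HSU, log2) of the 9 members above the filter, with the 95% interval of limma as a bar. Triangles give the difference without HSU_Sor 2 or without HSU_Sor 4: for Egr1 it is -0.65 without the first and 0.61 without the second.

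The sign of most differences turned on single lungs. Leaving out HSU_Sor 2 took the difference of Fos to -0.35, of Junb to -0.38, of Nr4a1 to -0.30 and of Ier2 to -0.23. Leaving out HSU_Sor 4 took them to 0.46, 0.34, 0.33 and 0.19. Without HSU 1b and HSU 2b, which held the cardiac transcripts, the differences were -0.17 for Egr1, -0.23 for Fos, -0.28 for Junb and -0.22 for Nr4a1, and without HSU_Sor 3 and HSU_Sor 4 the median difference of the members was 0.46. Myc kept its sign in all 18 alternative settings, between 0.08 and 0.16. Its groups did not overlap, so leaving out or weighting arrays could not have turned that sign.

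The members spread more between sorafenib lungs than between the others. The SD of Egr1 was 0.17 over the 3 HSU and 1.62 over the 4 HSU_Sor arrays, 9.52 times as large. For Fos it went from 0.29 to 0.99, for Nr4a1 from 0.21 to 0.77, for Ier2 from 0.15 to 0.52 and for Ier3 from 0.12 to 0.45. Junb (0.46 and 0.91) and Atf3 (0.60 and 0.77) were already variable without sorafenib, and Myc was steady in both groups (0.06 and 0.08). The median SD of the 9 members was 0.19 without and 0.77 with sorafenib, and that of all tested probe sets 0.11 and 0.14. The SD was larger with sorafenib for 9 of 9 members and for 62.1% of tested probe sets. With 3 and 4 arrays these SDs are themselves uncertain, and the difference in spread was not tested.

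**Figure D3:**
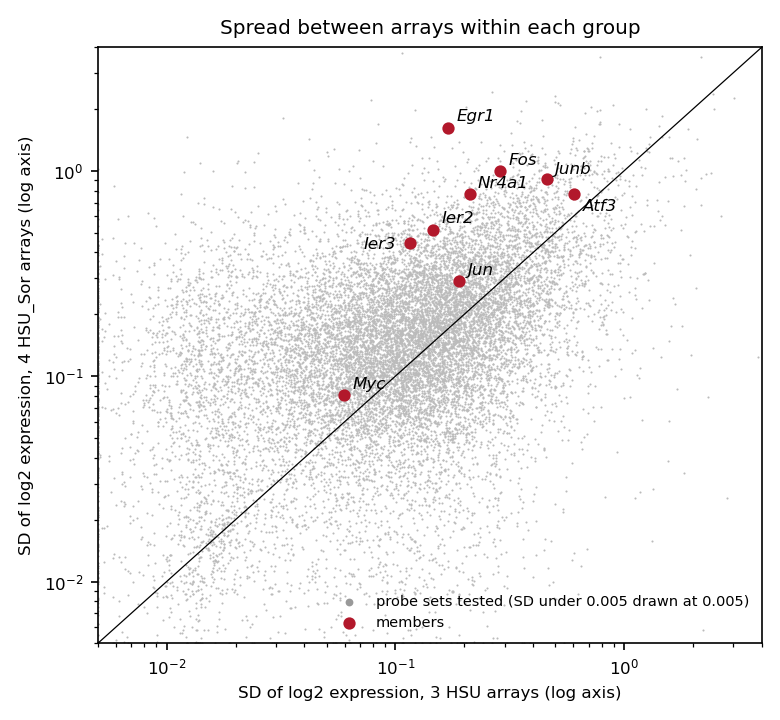
SD over the 4 HSU_Sor arrays (vertical axis) against SD over the 3 HSU arrays (horizontal axis), both in log2 units on log axes, for the tested probe sets (grey) and the members (named), with a line of equal SD. All 9 members lie above the line, and Egr1 lies farthest, at 1.62 against 0.17.

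Most members were high and low in the same lungs. HSU_Sor 2 was the highest array for 8 of 9 members (14.5% of tested probe sets), and HSU_Sor 4 the lowest for 5 of 9 (18.0%), which were Egr1, Fos, Junb, Nr4a1 and Ier2. Expressed as the mean deviation of the 9 members from their own means, the lungs stood at -0.26, -0.14 and 0.16 for HSU 1b, 2b and 3b, and -0.05, 0.98, -0.07 and -0.61 for HSU_Sor 1 to 4. In fold terms HSU_Sor 2 exceeded HSU_Sor 4 by 4.43 for Junb, 3.7 for Nr4a1, 3.38 for Atf3 and 2.36 for Ier2. The 2 arrays at the extremes were both sorafenib lungs.

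Over the 7 arrays the 36 pairs of members had a median Pearson r of 0.75, against 0.0022 over all pairs of tested probe sets. An r of at least 0.9 was reached by 9 of the 36 pairs and by 0.827% of all pairs. In exact permutation tests (two-sided, Benjamini-Hochberg over the 36 pairs) 6 pairs passed by Pearson's r, and these were all pairs among Fos, Junb, Nr4a1 and Ier2, with r from 0.92 to 0.99 and an adjusted permutation p of 0.0143 each. By Spearman's rho 3 pairs passed, Fos with Junb, Nr4a1 and Ier2 (rho 0.96, adjusted permutation p = 0.0333 each). The closest pair was Fos with Nr4a1, at r = 0.99, and without the farthest arrays, HSU_Sor 2 and HSU_Sor 4, it was 0.98. Over the same 5 arrays r was 0.87 for Fos with Ier2, 0.85 for Fos with Junb, 0.85 for Junb with Ier2, 0.80 for Junb with Nr4a1 and 0.78 for Nr4a1 with Ier2.

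Egr1 shared the extremes but not the order between them. Its r with Fos was 0.93 and with Nr4a1 0.93 (adjusted permutation p = 0.0889 each), and without HSU_Sor 2 and HSU_Sor 4 they were 0.09 and 0.16, so they rest on those arrays. Jun and Atf3 went together at r = 0.93 (adjusted permutation p = 0.0796), and at 0.61 without HSU 2b and HSU_Sor 2, the arrays farthest from the median of Jun. Ier3 had a median r of 0.61 with the other members, and Myc one of -0.03. With the group means removed, the median over the 36 pairs was 0.83. Without HSU_Sor 2 the median was 0.25, and without HSU_Sor 2 and HSU_Sor 4 it was 0.39. The high median across all members rests on HSU_Sor 2, while the 6 pairs among Fos, Junb, Nr4a1 and Ier2 stayed at 0.78 or more without both arrays.

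**Figure D4:**
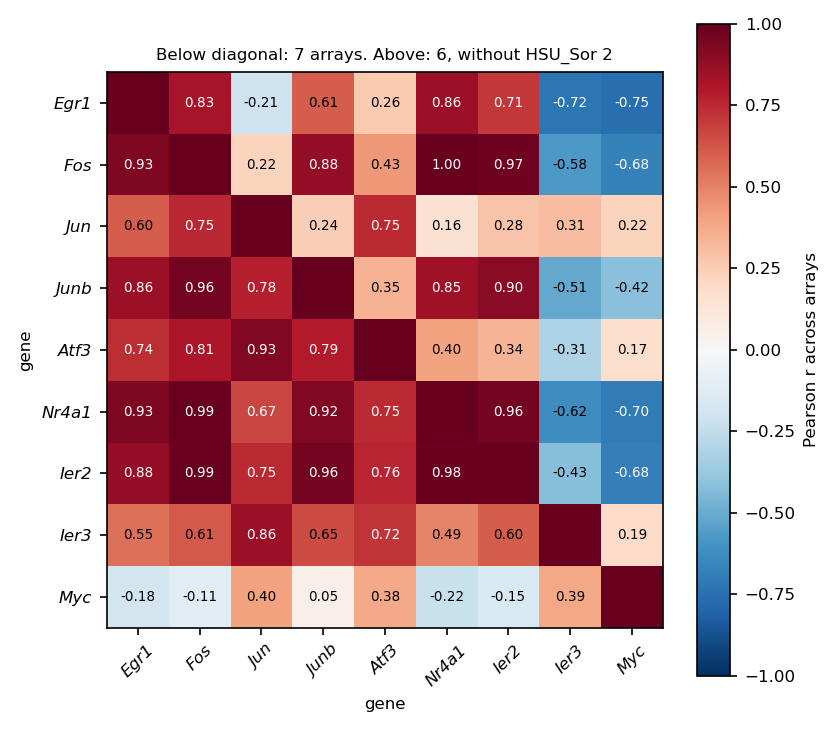
Pearson r for each of the 36 pairs of members above the filter, by colour and as printed values, below the diagonal over all 7 arrays and above it over 6 arrays, without HSU_Sor 2. Among Fos, Junb, Nr4a1 and Ier2 the cells read 0.92 to 0.99 below the diagonal and stay at 0.847 or more above it, where the r of Egr1 with Jun is -0.21.

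Other transcription factors of the early response were a list of their own. Of 24 listed genes 18 were above the filter, 0 passed limma's adjusted p of 0.05 and 1, a lower one, its unadjusted p. Over the whole array 569 of 15521 probe sets were lower and 362 higher at that unadjusted p. The median difference of the list was -0.11. HSU_Sor 2 was highest for 2 of the 18 and HSU_Sor 4 lowest for 6. Crem, a CRE-binding factor with repressor forms, had the smallest p. It read 11.14, 11.36 and 10.97 without and 10.49, 10.91, 10.62 and 10.86 with sorafenib, a difference of -0.44 with no overlap (SE 0.14, limma adjusted p = 0.756). Cebpd, a C/EBP factor of the acute phase response, was also lower without overlap, at 12.44 to 12.65 against 11.74 to 12.42 (-0.34, limma adjusted p = 0.874), with the nearest lungs all but touching. The share of all tested probe sets that were lower without overlap was not counted, so the lack of overlap is only described. The differences of Egr2 (0.40), Mafk (-0.27), Ier5 (0.12) and Jund (-0.10) did not pass either. Per1, a clock gene and CREB target, was chosen after its values were seen. It read 9.66, 10.13 and 9.75 in HSU 1b, 2b and 3b, and 9.91, 9.36, 9.99 and 7.60 in HSU_Sor 1 to 4. HSU_Sor 2, the highest lung for most members, was thus the lowest for Per1 apart from HSU_Sor 4. Egr3, Egr4, Fosl1, Fosl2 and Nr4a3 were under the filter.

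Early response genes that encode phosphatases, RNA decay factors, secreted ligands and signalling proteins formed another list. Of 39 listed genes 30 were above the filter, with a median difference of -0.05 and 0 at an adjusted p of 0.05 by limma. At an unadjusted p of 0.05, 1 was higher and 3 were lower, against 362 and 569 of the 15521 tested probe sets. HSU_Sor 2 was highest for 15 of the 30 and HSU_Sor 4 lowest for 13, and the mean deviation of the 30 was 0.39 and -0.11 on these arrays. Phlda1, a pleckstrin homology domain protein, read 7.43, 5.12 and 6.81 without and 7.66, 9.86, 8.12 and 8.31 with sorafenib, a difference of 2.04 with no overlap (SE 0.71, limma p = 0.0266, limma adjusted p = 0.812; exact permutation p = 0.0571). Areg, the EGF receptor ligand amphiregulin, was higher without overlap by 1.14 (limma adjusted p = 0.861), at 4.77 to 5.79 against 5.79 to 7.76, with the nearest lungs all but touching. Gadd45g, a growth arrest and DNA damage gene, was lower without overlap by a difference of -0.51 (limma adjusted p = 0.762), again with no share over the array counted. The differences of Ccl2, a monocyte chemokine (-1.92), Sgk1, a serum- and glucocorticoid-induced kinase (-0.27), and Ptgs2, cyclooxygenase-2 (0.66), had overlapping groups and none passed the adjusted test.

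The kinases and factors upstream of these genes had small differences. Of 23 listed genes 15 were above the filter, 0 passed limma at an adjusted or an unadjusted p of 0.05, and the median difference was -0.07. Srf, which binds the CArG box, read 10.55, 10.73 and 10.86 without and 10.53, 10.70, 10.58 and 10.48 with sorafenib (difference -0.14, SE 0.09, limma adjusted p = 0.874). The differences of Map2k1 (-0.16) and Map2k2 (-0.07), which encode the MEK kinases, Atf1 (-0.10), Elk4 (-0.20) and Mrtfa (-0.08) were of the same small size. Transcript levels do not measure the activity of these kinases.

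Among 9290 genes above the filter, ranked by Pearson r with the mean deviation of the members over the 7 arrays, the median r was 0.04. The 8 highest were Nol7 (0.99), Rps3a (0.99), Stx5 (0.98), Ccrl2 (0.98), Cpq (0.97), Tbl3 (0.97), Spry4 (0.97) and Ppp1r15a (0.96), and 2 of them were on the early response lists. Spry4, a feedback inhibitor of receptor tyrosine kinase signalling, read 9.48, 9.91 and 10.25 without and 9.83, 10.81, 9.76 and 9.31 with sorafenib. Ppp1r15a, the GADD34 subunit that directs a phosphatase to eIF2 alpha, spanned 0.71 over the 7 arrays, from 7.98 in HSU_Sor 4 to 8.69 in HSU_Sor 2. Nol7 had a range of only 0.26 over the 7 arrays, Rps3a of 0.17 and Stx5 of 0.22, so a high r here does not mean a wide swing. The 4 lowest were Ankrd12 (-0.99), Pfkfb4 (-0.98), Erich3 (-0.97) and Fpgt (-0.97). With values centred within each group, 6 of the same 8 genes were again the highest. These r are descriptions over 7 arrays.

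The early lists ranged widely in their likeness to the members. The median r with the members' mean was 0.55 over the 30 effector genes, 0.34 over the 18 other transcription factors and 0.02 over the 15 upstream genes. The genes named next were chosen after their values were seen, and they come from both ends. Zfp36, which encodes the mRNA decay factor tristetraprolin, had an r of 0.96 with the members and rank 10, and read 12.91, 13.08 and 13.10 without and 13.10, 13.86, 13.28 and 12.65 with sorafenib. Hbegf, an EGF receptor ligand, had 0.96 and rank 12. Elk3, an ETS partner of SRF, had 0.93 and rank 31, and Dusp1, a phosphatase that inactivates MAP kinases, 0.86 and rank 99. All 4 were highest in HSU_Sor 2 and lowest in HSU_Sor 4. At the other end Ccn2, the matricellular protein CTGF, had an r of -0.77 and rank 9057, and Klf10, a TGF-beta-induced zinc finger factor, had -0.54 and rank 8442.

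**Figure D5:**
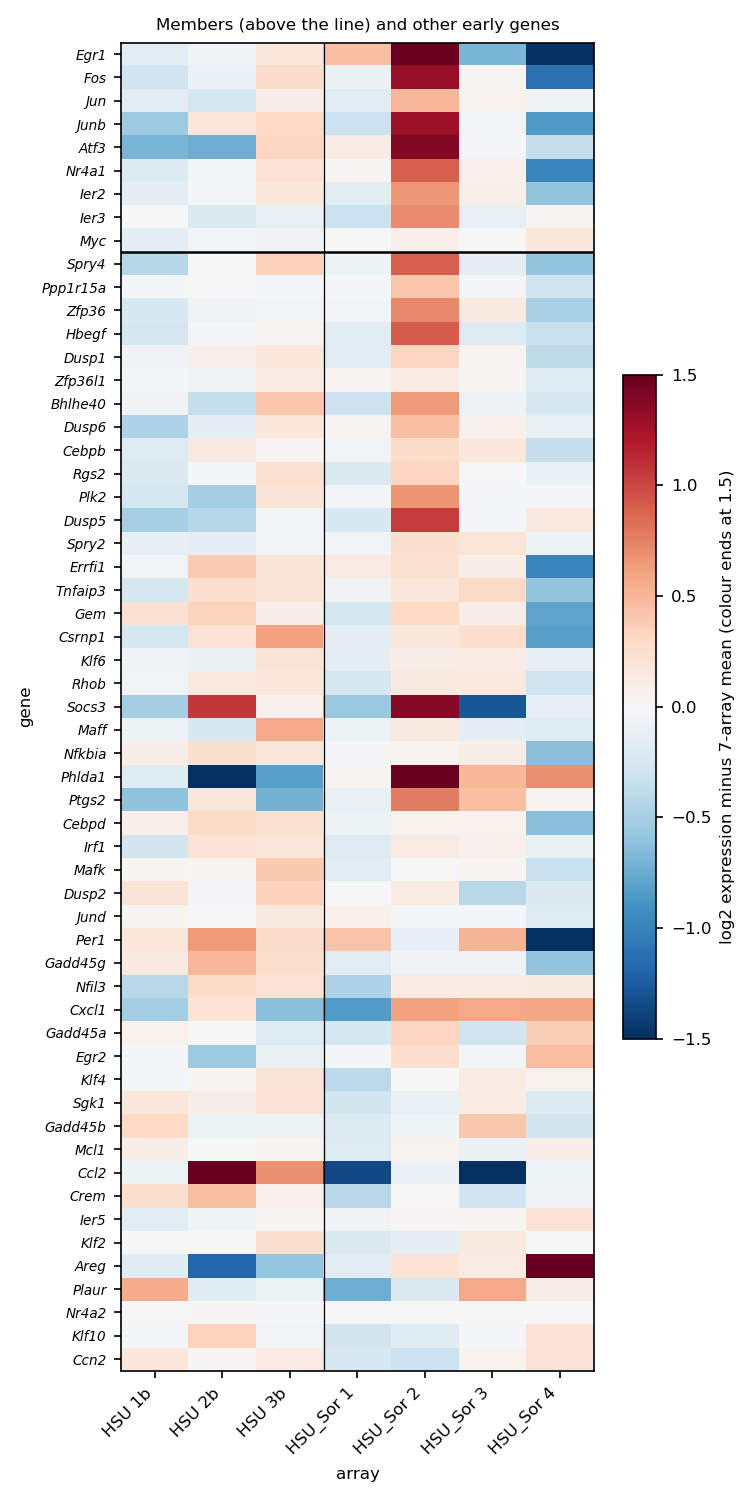
Deviation of each gene from its own mean over the 7 arrays (log2, by colour, red above and blue below, colour ending at 1.5), with arrays in columns, the 9 members above the horizontal line and the other early transcription factors and effector genes above the filter below it, ordered by r with the members' mean. The HSU_Sor 2 column is red for most members and for the genes just under the line, and in the HSU_Sor 4 column 7 of the 9 members are below their own mean, Egr1 by most, at -1.76.

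Heat shock genes and markers of other cells also differed between the lungs that the members separate. All 6 heat shock genes above the filter had lower means with sorafenib (median difference -0.18, 0 past limma's unadjusted p of 0.05), and their mean deviation was -0.33 in HSU_Sor 2 and 0.20 in HSU_Sor 4. The 8 smooth muscle genes stood at 0.30, 0.47 and 0.32 in HSU 1b, 2b and 3b, and at -0.54 in HSU_Sor 2 and -0.32 in HSU_Sor 4. The 2 red cell genes above the filter, Hbb and Alas2, stood at 0.77 in HSU_Sor 2, -3.22 in HSU_Sor 3 and -3.47 in HSU_Sor 4. The neutrophil genes S100a8 and S100a9 stood at 0.24 in HSU_Sor 2, 1.70 in HSU_Sor 3 and -0.92 in HSU_Sor 4, while Cxcr2, Csf3r, Mmp8 and Camp were under the filter. The 7 endothelial genes stood at 0.05 in HSU_Sor 2 and -0.24 in HSU_Sor 4, and the 5 alveolar type I genes at 0.13 and -0.06. Airway secretory genes stood at -0.50 in HSU_Sor 2 and -1.28 in HSU_Sor 4, cardiac genes at -0.51 and -1.31, and macrophage genes at -0.02 and -0.45. The mean deviation of the members was 0.98 in HSU_Sor 2, -0.07 in HSU_Sor 3 and -0.61 in HSU_Sor 4. HSU_Sor 2 and HSU_Sor 4 thus differed in several of these lists as well as in the members. The part of any of these lists in the members' values was not tested.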

How the data were processed

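Total RNA from 7 rat lungs was labelled with biotin and hybridised to Affymetrix rat arrays, one colour per array. The values are the deposited log2 signals per probe set from the authors' series matrix. RMA and GCRMA are both named in the submitters' processing notes, with no version, and the sources used here do not say which made this table. No further normalization was applied.

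Control probe sets (57) were left out. Of the other 31042, the platform table gave 1 gene symbol to 20826, several to 436 and none to 9780. Probe sets with a mean above the 50th percentile of these means (3.64) were tested, 15521 in all. The difference HSU_Sor minus HSU was fitted with limma 3.58.1 in R 4.3.3 (lmFit, eBayes, two-sided, Benjamini-Hochberg over all tested, threshold 0.05), and the code was tested on simulated data. A gene was represented by its probe set with the highest mean. Single values and pairwise correlations were tested by exact permutation with scipy 1.17.1, the pairs over 5040 arrangements. Named genes were all members, up to 6 genes of smallest p in each of the 3 other lists, and the 8 most and 4 least alike genes; any others are said to be chosen after their values were seen. Members and lists were chosen with earlier results of these data known, so they lend no independent support. The number of arrays limits the precision.

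Alternatives were other filters, quantile normalization, median centring, array weights, a trended robust prior, the mean of a gene's probe sets, a replicate block, and leaving out single or paired arrays. The deposited values were already log2, so another offset did not apply.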

Additional observations from a re-analysis of the deposited data

Results flagged for a closer look

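Over the 4 sorafenib arrays, 41 probe sets were examined. They were those of the members above the filter, the genes of smallest p and the most and least alike genes. Genes chosen after their values were seen were not among them. Of the 41 probe sets, 1 had an array far from the others. It was 1 of the 3 Jun probe sets, where HSU_Sor 2 read 13.18 and the next lung 12.36. The gap was 0.875 of the group's whole range, above Dixon's 95% critical value for 4 arrays. Chance alone puts about 1 in 20 groups past this limit. The other 2 Jun probe sets were also highest in HSU_Sor 2 but did not pass it. Hbegf, not among the 41, read 7.66, 8.73, 7.62 and 7.49 in HSU_Sor 1 to 4, so HSU_Sor 2 stood apart there too.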

How the results depend on the processing

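Over 161 values of the 9 members under the alternatives, 131 kept the sign of the reported difference and 30 turned, and the lowest limma adjusted p was 0.682. Other filters and the trended robust prior leave the difference itself unchanged, as does the mean of probe sets for a gene with 1 probe set. Those values kept the sign by construction, so the 131 are not all separate checks. Myc kept its sign in 18 of 18, which restates in most settings that its groups did not overlap. With array weights and without a filter, 1 member (Myc) reached an unadjusted p of 0.05. Leaving out single arrays gave -0.65 to 0.61 for Egr1, -0.35 to 0.46 for Fos, 0.055 to 0.30 for Jun, -0.38 to 0.34 for Junb, 0.27 to 0.99 for Atf3, -0.30 to 0.33 for Nr4a1, -0.23 to 0.19 for Ier2, -0.022 to 0.32 for Ier3, -0.23 to 0.33 for the members' median difference and 0.25 to 0.86 for the median pairwise r. The low ends are without HSU_Sor 2 and the high ends without HSU_Sor 4, except that Ier3's high end is without HSU_Sor 1 and those of Jun and Atf3 are without HSU 3b. Without HSU 1b and 2b (1 control left, assumed to vary like the others) the differences were -0.17 for Egr1, -0.23 for Fos, -0.020 for Jun, -0.28 for Junb, -0.051 for Atf3 and -0.22 for Nr4a1, their median was -0.16 and the median r 0.87. Without HSU_Sor 2 and 4, a choice added after seeing the data, they were -0.10 for Egr1, -0.16 for Junb and -0.11 for Ier3, with a median r of 0.39. Without HSU_Sor 3 and 4, Ier2 was 0.24, the median difference 0.46 and the median r 0.89. Ier2, near 0, also turned with quantile normalization (0.026), median centring (0.0066) and array weights (0.0031). Over the whole array, probe sets past an adjusted p of 0.05 numbered 0 to 6 with single arrays left out (6 without HSU 3b), 6 with the filter at the 75th percentile and 10 without HSU 1b and 2b. Those at an unadjusted p of 0.05 numbered 562 with that filter and 1566 without HSU_Sor 2 and 4. With the replicate number as a replicate block, 0 probe sets passed, Ier2 was 0.19 and the median difference 0.33. HSU_Sor 4 is the only array with its number, so this setting gave the same differences as leaving that array out. Its values among the 161 are therefore not separate ones. Same-numbered arrays correlated at -0.06, 0.18 and 0.14, so the numbers were not taken to pair the rats. The causes of these shifts were not tested beyond the arrays left out.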
